A study of Mus musculus with 4 samples.

Results

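Histone cluster genes are the genes whose symbols start with Hist, a cluster number and the letter h, such as Hist1h1c or Hist3h2a. All such symbols in the deposited gene tables were taken, 68 of 27933 symbols, on 69 rows, since Hist2h2bb stands under 2 Ensembl IDs. Of the 69 rows, 6 encode linker histone H1, 19 encode H2A, 19 H2B, 12 H3 and 13 H4. By the number in the symbol, 55 rows belong to Hist1 on chromosome 13, 11 to Hist2 on chromosome 3, 2 to Hist3 on chromosome 11 and 1, Hist4h4, to chromosome 6. The samples were 4 lung libraries of wild type C57BL/6 mice labelled male, taken at 10 days (NB), 2 months (2 M), 10 months (10 M) and 18 months (18 M), untreated, digested with collagenase D and DNase1 and freed of dead cells. Each age was a single 10x 3′ library, so differences between ages were described with no test. Values are unique molecular identifier (UMI) counts, and CPM is a gene's UMIs per 1000000 UMIs of the cells summed.

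Core histones H2A, H2B, H3 and H4 form the nucleosome that DNA wraps around, and H1 binds the linker DNA where it enters and leaves. Most cluster genes are replication-dependent: they are transcribed in S phase, and their mRNA ends in a stem-loop in place of a poly(A) tail. Stem-loop binding protein (Slbp) holds that end, and the mRNA is degraded when DNA synthesis stops. Some cluster genes can also use a polyadenylation site past the stem-loop, which gives a poly(A) mRNA in cells that do not divide. The 10x 3′ assay primes on poly(A), so histone mRNA that ends at the stem-loop is captured poorly, and levels in this assay are no measure of total histone mRNA. Mki67, a protein of the surface of mitotic chromosomes, and Top2a, the topoisomerase that separates replicated DNA, are made in cycling cells and are not members.

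In the 28153 cells kept, members held 73953 UMIs, 0.0484% of all UMIs. UMIs were found for 65 rows, of which 41 had at least 100 and 24 had 1 to 99. The 4 rows with 0 UMIs were Hist1h2aa, Hist1h2ba, Hist1h2bq and Hist1h2br. H1 genes gave 42.9% of member UMIs, H2A genes 18.9%, H2B genes 18.7%, H4 genes 12.4% and H3 genes 7.06%. Hist1h1c (14934 UMIs), Hist1h1e (11514) and Hist1h2bc (7953) together gave 46.5%. Near-identical copies can share reads: Hist2h2aa1 had 756 UMIs and its copy Hist2h2aa2 had 3, and how reads were split between such copies cannot be told from the counts.

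The 4 libraries held 6283 to 11297 barcodes and 33087004 to 64863474 UMIs, and the median cell kept had 3998.5 to 4308 UMIs. Of the barcodes of cells kept, 90 occurred in more than 1 library. Xist, which is transcribed from the inactive X chromosome of female cells, had 578 CPM in the library labelled 18 M and 0.176 to 0.526 CPM in the other 3, although the labels give every mouse as male, so what differs in the library labelled 18 M cannot be told apart from age. Cell types were assigned cell by cell from 6 markers each, of which at least 3 had to have a UMI and at least 2 more than for any other type. The T cell list had 4 usable markers, since Trbc1 and Trbc2 are not among the symbols of the tables analysed here. This gave 10564 B cells and 3733 T cells, and 28.5% of cells kept had no type. Of these, 2276 B cells and 1936 T cells had exactly 3 markers.

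To show what sets the members apart in a poly(A)-primed assay, their 3′ ends were read from GENCODE M21 transcripts (mouse genome GRCm38). A stem-loop of the form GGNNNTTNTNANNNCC, searched on the transcript strand, was found after the stop codon of 44 of 65 member genes with a coding transcript. It lay 21 to 58 bases past the stop codon, with a median of 31.5. The 44 genes carried 8 different 16-base stem-loops, with 1 sequence in 24 genes. In the other 21 genes none was found, which does not show that they lack one. The annotated transcripts of Hist1h1b and Hist1h2an, for example, end at the stop codon, so their 3′ ends could not be read. The following are shown because they cover both main forms of the stem and the members the results turn on, with the stem-loop in capitals and its position given for the capitals alone.
Hist1h1c (chr13:23739512-23739527, plus strand): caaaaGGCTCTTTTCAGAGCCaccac
Hist1h1e (chr13:23621782-23621797, minus strand): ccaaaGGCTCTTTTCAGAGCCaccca
Hist1h2ap (chr13:21833029-21833044, minus strand): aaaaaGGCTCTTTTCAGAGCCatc
Hist1h2ab (chr13:23751572-23751587, plus strand): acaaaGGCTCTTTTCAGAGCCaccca
Hist3h2a (chr11:58955172-58955187, plus strand): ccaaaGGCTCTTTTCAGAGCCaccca
Hist1h3c (chr13:23745047-23745062, minus strand): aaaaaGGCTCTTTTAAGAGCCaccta
Hist1h4d (chr13:23581950-23581965, plus strand): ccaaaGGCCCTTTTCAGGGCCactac
Hist4h4 (chr6:136803998-136804013, minus strand): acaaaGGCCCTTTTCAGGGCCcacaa
All of these positions lie in the 3′ untranslated region. Hist1h1c, Hist1h1e, Hist1h2ap, Hist1h2ab and Hist3h2a carry the same 16 bases, and Hist1h4d and Hist4h4 share another 16.

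What follows the stem-loop in the annotation differed widely. Hist1h1c has 840 annotated bases past it and a polyadenylation signal (AATAAA or ATTAAA) within the last 40 bases of the transcript. Hist3h2a has 1643 bases past it and Hist4h4 has 2445, both with such a signal. The transcript of Hist1h2ap stops 3 bases past its stem-loop, that of Hist1h2ab 11 bases and that of Hist1h3c 74 bases past it. For 22 genes the annotation runs 100 or more bases past the stem-loop, and 12 of these have the signal. For the other 22 it stops sooner, and 1 has the signal.

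Levels in cells with no UMI of Mki67 or Top2a were set beside these lengths. In B cells, the 22 genes with the longer annotation had a median of 5.48 CPM (0.0299 to 111 CPM, each gene a mean over 4 libraries), and the 22 with the shorter one a median of 0.477 CPM (0 to 27.6 CPM). In T cells the medians were 7.05 CPM and 0.490 CPM. The 21 genes with no stem-loop found are in neither set. Their medians were 0.428 CPM in B cells and 0.611 CPM in T cells, and Hist1h2bc was the highest in B cells at 42.7 CPM. Over all cells kept, the longer set held 48416 UMIs and the shorter 11051. The sets overlap: Hist1h2ap, with 3 bases past the stem-loop, is the highest of the shorter set at 27.6 CPM in B cells and lies above the median of the longer set. Counts depend on how far the authors' annotation reaches, which can differ from GENCODE M21, and its part in these levels was not tested.

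**Figure D1:**
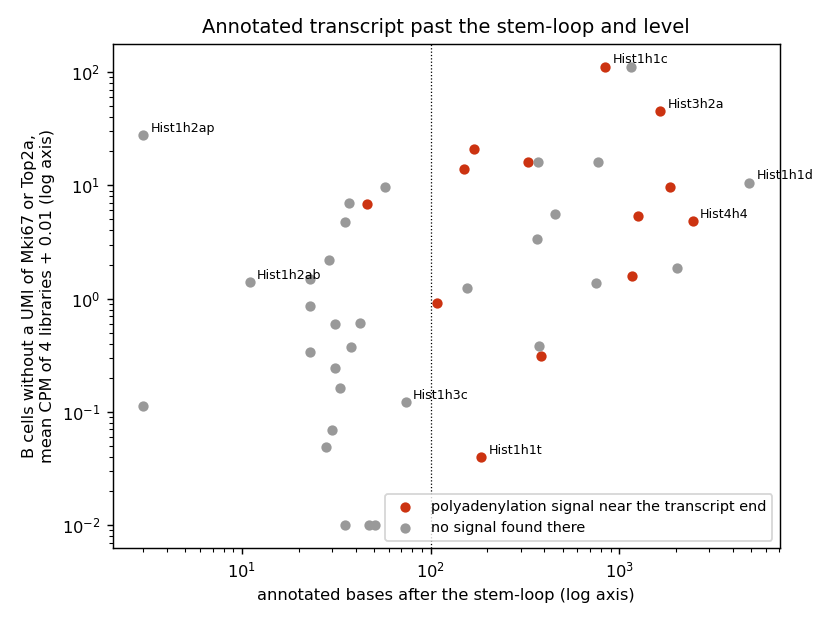
Each point is 1 member with a stem-loop and at least 1 UMI, with the annotated bases past the stem-loop on the x axis and its level in B cells without a UMI of Mki67 or Top2a on the y axis (mean of 4 libraries, CPM plus 0.01, log axes), red points have a polyadenylation signal within 40 bases of the transcript end, grey points have none, and the dotted line marks 100 bases. Hist1h1c and Hist3h2a lie at the upper right with 111 and 45.0 CPM, and Hist1h2ap lies at 27.6 CPM with 3 bases past the stem-loop.

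The promoters of 2 H1 genes are shown because Hist1h1b and Hist1h1c lie at opposite ends of the H1 genes called in T cells. Both come from RefSeq (GRCm38.p6), 250 bases before to 50 after the start, 5′ to 3′ on the gene's strand. Capitals mark the CCAAT box (CCAAT), the TATA box (TATAAA), the H1 box (AAACACA) and the octamer motif, ATTTGCAT, all searched on both strands.
Hist1h1b (chr13:21780576-21780875, minus strand): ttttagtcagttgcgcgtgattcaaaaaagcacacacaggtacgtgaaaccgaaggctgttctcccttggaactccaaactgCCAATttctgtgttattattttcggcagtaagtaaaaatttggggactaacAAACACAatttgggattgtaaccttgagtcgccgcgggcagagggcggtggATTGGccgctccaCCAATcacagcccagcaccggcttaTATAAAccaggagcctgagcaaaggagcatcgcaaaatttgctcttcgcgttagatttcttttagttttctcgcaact
Hist1h1c (chr13:23738557-23738856, plus strand): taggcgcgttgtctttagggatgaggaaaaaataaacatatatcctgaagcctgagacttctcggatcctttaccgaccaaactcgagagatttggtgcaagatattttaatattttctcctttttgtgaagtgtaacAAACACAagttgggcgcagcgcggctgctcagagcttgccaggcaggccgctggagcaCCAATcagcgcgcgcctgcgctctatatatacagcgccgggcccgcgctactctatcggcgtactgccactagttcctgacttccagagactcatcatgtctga
Both hold the H1 box and CCAAT, and the exact letters TATAAA were found in Hist1h1b alone of the pair. Other TATA-like stretches, such as tatatata in Hist1h1c, were not searched and are not marked. The H1 box was in 5 of 6 H1 promoters, against 7.14% of all 27025 promoters. Of 61 members matched to a promoter, 52 (85.2%) held CCAAT, against 37.9% of all promoters. This included all 49 promoters of H1, H2A, H2B and H3 genes and 3 of 12 H4 promoters. The octamer, a sequence of H2B and H2A promoters, was in 6 of 16 H2B and 7 of 17 H2A promoters and in none of the H1, H3 or H4 promoters, against 1.75% of all promoters. An H2A and an H2B gene that lie head to head can share a window, so these counts are not independent.

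In T cells, members were higher in cells with a UMI of Mki67 or Top2a in every library. Their summed level was 1015 CPM in NB T cells with such a UMI, against 371 CPM in NB T cells without. It was 1253 CPM with and 407 CPM without in 2 M, 813 CPM with and 480 CPM without in 10 M, and 2082 CPM with and 235 CPM without in 18 M. From NB to 18 M the ratios were 2.73, 3.08, 1.69 and 8.86, and their 95% counting intervals lay between 1.55 and 9.55. These cells numbered 139, 73, 110 and 145 in the order of age, against 970, 717, 818 and 761 without. Their median depth was 6666, 7863, 6672.5 and 7830 UMIs, against 5460, 6620, 6044.5 and 5020 UMIs in cells without, and the part of depth was not tested.

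UMIs were summed per library and class, and edgeR's quasi-likelihood test with the library as a block was run over 11325 genes, with Benjamini-Hochberg adjustment. Of 44 members tested, 26 were called higher and 0 lower in T cells with a UMI of Mki67 or Top2a, where 2.87% of all genes were called higher and 2.64% lower. At an unadjusted p under 0.05, 30 members were higher and 2 lower, a threshold at which no share over all genes is given. DESeq2 called 17 members higher and 0 lower, where it called 181 of all genes higher and 77 lower. All 26 were higher in at least 3 of 4 libraries, and 24 of them in all 4. These are the libraries that gave the calls, so the directions are no added support. A gene needed 20 UMIs to be fitted. Some members, such as Hist1h3c, Hist1h2af, Hist1h2ab, Hist1h2bb and Hist1h2bg, reached this only through cells with a UMI of Mki67 or Top2a. For these the filter favours a call higher over a call lower. The median log2 fold change was 1.57 over the 44 members and -0.04 over all genes. Without the 18 M library 14 members were called higher and 1, Hist4h4, lower, and without the 2 M library 15 were called higher.

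Of 7 H3 rows tested, 5 were called higher, and Hist1h3a (1.06) and Hist2h3c1 (-0.31) did not pass. Hist1h3c, which encodes a replication-dependent H3, had 38, 28, 9 and 148 UMIs in T cells with a UMI of Mki67 or Top2a (NB, 2 M, 10 M, 18 M), against 3, 0, 1 and 5 UMIs in the far more numerous T cells without. That is 36.7, 47.7, 11.4 and 115 CPM, against 0.522, 0, 0.194 and 1.21 CPM, and the groups do not overlap. Its log2 fold change was 6.50 ± 0.34 (SE, edgeR, adjusted p = 6.5e-27). Hist1h3e rose by 1.57 on the log2 scale, Hist1h3i by 1.78 and Hist1h3f by 1.68, the last pair not without the 2 M or the 18 M library (1.69 and 1.70 without 2 M, 1.11 and 0.97 without 18 M).

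Among H2A and H2B genes, Hist1h2ab had 22.2, 18.7, 10.1 and 46.5 CPM in T cells with a UMI of Mki67 or Top2a, against 0.696, 0.402, 0.776 and 1.45 CPM in those without. Its log2 fold change was 4.64 ± 0.40 (SE, edgeR, adjusted p = 1.9e-15). Cells without had 4, 2, 4 and 6 UMIs of Hist1h2ab, so it reached the minimum of 20 UMIs only through cells with. Hist1h2ae had 88.9, 88.5, 34.1 and 174 CPM with, against 5.22, 4.62, 6.79 and 7.24 CPM without, a log2 fold change of 3.79 ± 0.30. Both H2A genes were higher with than without in all 4 libraries, with no overlap. Hist1h2af is less certain in size, with 13, 2, 4 and 22 UMIs with, against 0, 0, 0 and 1 without. Hist1h2bb (4.22), Hist1h2bn (2.48), Hist1h2bg (2.52) and Hist1h2bj (1.84) were the H2B genes called among members with at least 100 UMIs, beside the row ENSMUSG00000105827 of Hist2h2bb (1.58). Of these, Hist1h2bg, Hist1h2bj and Hist2h2bb did not pass without the 18 M library (1.89, 0.72 and 0.97) or without the 2 M library (2.37, 2.03 and 1.73), and Hist2h2bb not without NB (1.52).

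The most abundant H2A gene, Hist1h2ap, missed the threshold. It had 126, 167, 54.3 and 454 CPM in T cells with a UMI of Mki67 or Top2a, against 12.5, 15.1, 15.1 and 19.1 CPM in those without. It was higher in all 4 libraries, by 3.36 ± 0.52 on the log2 scale (SE, edgeR, adjusted p = 0.085). It passed with DESeq2 (3.23) and without the 18 M library (2.88) or the 10 M library (3.75).

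The H1 genes ranged widely. Hist1h1b had 113, 158, 87.1 and 277 CPM with, against 10.3, 7.04, 13.0 and 11.1 CPM without, a log2 fold change of 3.72 ± 0.38 (edgeR, adjusted p = 0.018). Hist1h1a (2.33, and 1.97 without the 2 M library, where it did not pass) and Hist1h1d (1.85) were also called. Hist1h1e had 116, 165, 154 and 125 CPM with, against 58.1, 71.4, 101 and 19.8 CPM without, and its change of 1.17 ± 0.40 did not pass (edgeR, adjusted p = 0.34). Hist1h1c had 86.0, 138, 143 and 101 CPM with, against 70.5, 95.9, 114 and 48.5 CPM without. It was called at 0.42 ± 0.11, the smallest change among the 26 (edgeR, adjusted p = 0.012), and did not pass with DESeq2 (0.45) or without the 2 M library (0.43) or the 18 M library (0.28).

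Other members did not pass in T cells. Hist1h2bc, an H2B gene, had 18.4, 13.6, 12.6 and 24.8 CPM with, against 17.2, 19.7, 16.3 and 8.93 CPM without, so that it was higher with in 2 of 4 libraries. Hist3h2a, an H2A gene of the small Hist3 cluster, had 19.3, 22.1, 13.9 and 13.2 CPM with, against 16.4, 22.3, 21.5 and 14.7 CPM without. Hist4h4 had 2.90, 3.40, 3.79 and 5.43 CPM with, against 9.23, 10.9, 9.31 and 3.14 CPM without. None of these passed (log2 fold changes of 0.16 ± 0.25, -0.24 ± 0.23 and -0.99 ± 0.41). Of 5 cluster genes listed as known to give poly(A) transcripts outside S phase (Hist1h1c, Hist1h2bc, Hist2h2be, Hist3h2a and Hist3h2ba), 1, Hist1h1c, passed.

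**Figure D2:**
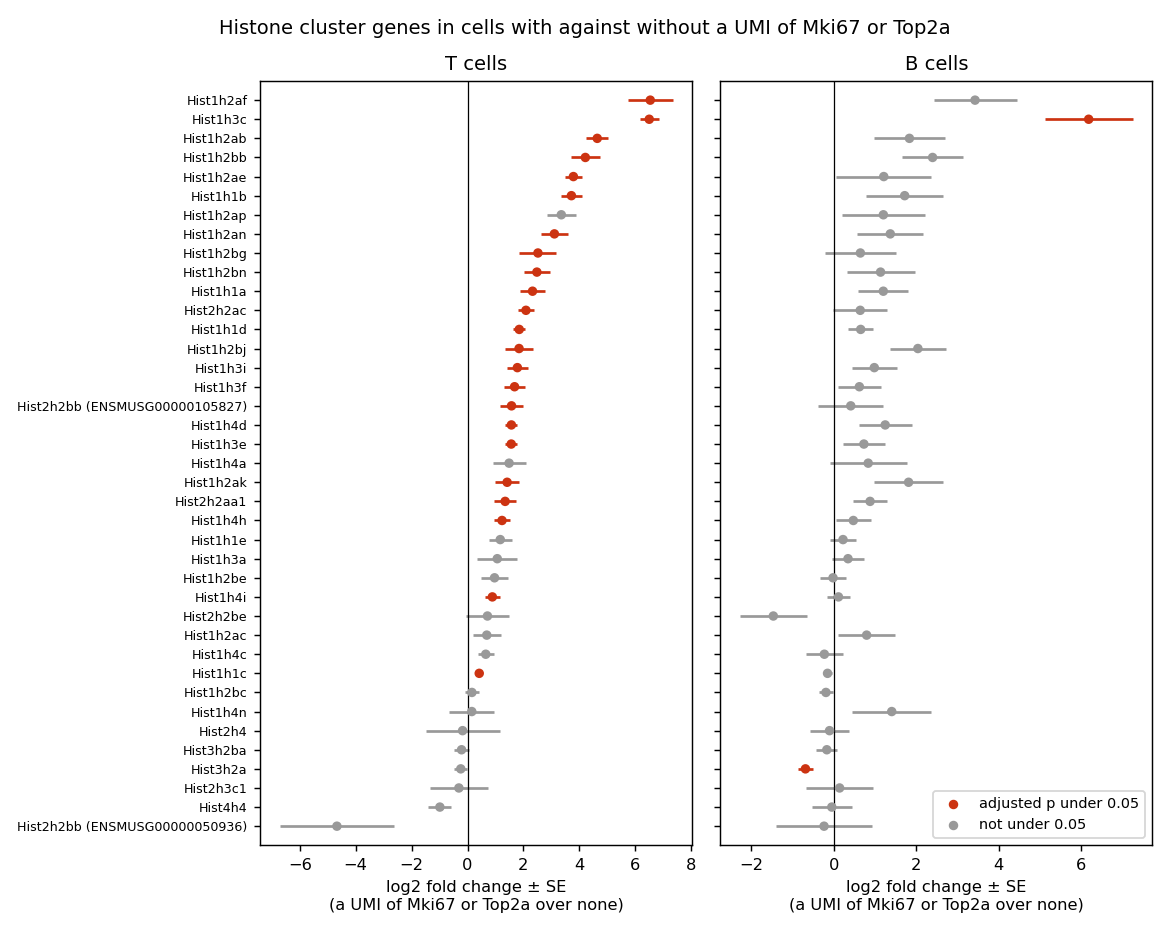
Points are log2 fold changes of members with at least 100 UMIs between cells with a UMI of Mki67 or Top2a and cells with none (edgeR, 4 libraries, library as a block) with bars of 1 SE, in T cells on the left and B cells on the right, in the order of the T cell values. In T cells most points are red (adjusted p under 0.05), with Hist1h3c at 6.50, and in B cells Hist1h3c at 6.18 and Hist3h2a at -0.69 are the red points.

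In B cells the same contrast held in 1 library only. The summed level of members was 371 CPM in NB B cells with a UMI of Mki67 or Top2a, against 492 CPM in those without. It was 601 CPM with and 688 CPM without in 2 M, and 657 CPM with and 678 CPM without in 10 M. In the library labelled 18 M it was 1238 CPM (1179 to 1298 CPM) with and 294 CPM (283 to 305 CPM) without. The ratio was 4.21 in 18 M (interval 3.96 to 4.48) and 0.755 to 0.968 in the other 3.

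Of 45 members tested over 12277 genes in B cells, edgeR called 1 higher and 1 lower, where 1.3% of all genes were called higher and 0.497% lower. At an unadjusted p under 0.05, 8 were higher and 1 was lower. DESeq2 called 0 in either direction, with 4 higher and 1 lower at an unadjusted p under 0.05. No share over all genes is given at the unadjusted threshold, and the shares above do not apply to it. The member called higher was Hist1h3c, with 86 UMIs in 18 M B cells with a UMI of Mki67 or Top2a and 0 in such cells of the other libraries, against 1, 1, 0 and 2 UMIs in B cells without (6.18 ± 1.07, edgeR, adjusted p = 0.00025). It reached the minimum of 20 UMIs for a fit only through these 18 M cells, so a call in the other direction was hardly possible. Without that library it falls short of the minimum. The member called lower was Hist3h2a, with 13.1, 38.4, 39.4 and 28.5 CPM with, against 42.9, 48.0, 49.6 and 39.5 CPM without, lower in 4 of 4 libraries (-0.69 ± 0.18, edgeR, adjusted p = 0.023). Without the 18 M library 0 members were called higher by edgeR, 0 were higher at an unadjusted p under 0.05, and Hist3h2a was called lower at -0.79. Without the NB library Hist3h2a did not pass (-0.44, adjusted p = 0.30).

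A stricter class gave more calls. With a UMI of both Mki67 and Top2a, 59 B cells remained, in 3 libraries, and 24 of 41 members were called higher and 0 lower (edgeR, where 2.48% of all genes were called higher and 0.375% lower). Of these cells 10 were from NB, 2 from 2 M, 0 from 10 M and 47 from 18 M. Without the 18 M library edgeR called 0 of 33 members in either direction, with 0 higher and 1 lower at an unadjusted p under 0.05, so the count rests on that library. In T cells 88 cells met this rule, and 35 of 44 members were called higher and 0 lower, where 4.82% of all genes were called higher and 5.81% lower. Without the 18 M library 24 of 36 were called higher and 0 lower. DESeq2 was not run on this class.

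Cells were split by their summed UMIs of Mki67 and Top2a, a split chosen after the values had been seen, so it is described with no test. In NB T cells the members' level was 371 CPM at 0 UMIs, 402 CPM at 1, 416 CPM at 2 to 4 and 4566 CPM at 5 or more. In 2 M it was 407, 495, 611 and 8928 CPM over the same classes, in 10 M 480, 523, 502 and 4499 CPM, and in 18 M 235, 234, 775 and 3466 CPM. The largest rise lay between 2 to 4 and 5 or more UMIs in all 4 libraries. In 18 M the level also rose between 1 and 2 to 4 UMIs, where 2 of 17 T cells had over 2000 CPM. The highest class held 13, 4, 4 and 60 T cells (NB, 2 M, 10 M, 18 M), so in 2 M and 10 M it rests on 4 cells each. Within it cells still differed. Of the 60 T cells of 18 M, 45 had over 2000 CPM of members, the lowest had 291 CPM and the highest 7278 CPM. None of the 761 18 M T cells with 0 UMIs had over 2000 CPM.

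B cells reached such levels in 18 M alone, where the classes had 294, 277, 722 and 3197 CPM and the highest class held 40 cells, of which 29 had over 2000 CPM. In the other libraries B cells with 5 or more UMIs numbered 4 in NB (448 CPM), 1 in 2 M (646 CPM) and 0 in 10 M. Single B cells over 2000 CPM also occurred without a UMI of Mki67 or Top2a: 56 of 2012 in NB, 134 of 2411 in 2 M, 178 of 3252 in 10 M and 20 of 2349 in 18 M. The median depth of all B cells without a UMI of Mki67 or Top2a was 3082 to 3711 UMIs, and that of the cells over 2000 CPM was not computed.

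**Figure D3:**
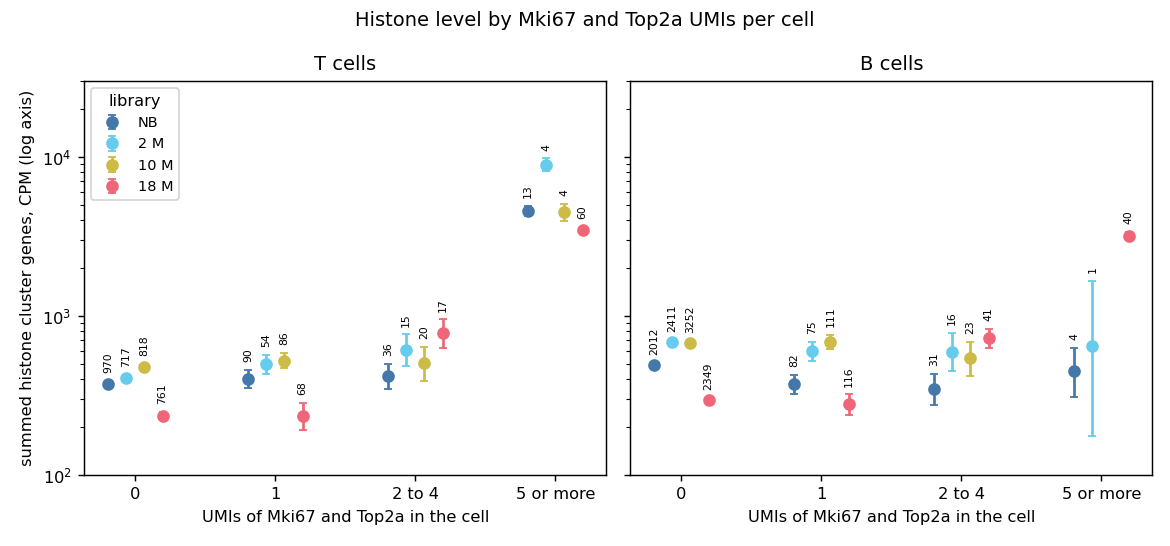
The summed level of all members (CPM, log axis) is plotted by the UMIs of Mki67 and Top2a in the cell for T cells (left) and B cells (right), with 1 point per library, bars for the 95% Poisson interval and the number of cells above each point. T cells with 5 or more UMIs lie at 3466 to 8928 CPM in the 4 libraries, and B cells reach 3197 CPM in 18 M alone.

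The highest class held a small share of a library's T cell UMIs and a large share of some members. It gave 2.23%, 0.919%, 0.983% and 13.2% of T cell UMIs and 21.7%, 16.5%, 8.43% and 68.0% of T cell member UMIs (NB, 2 M, 10 M, 18 M). For Hist1h3c the share was 92.7%, 100%, 90.0% and 93.5%, and for Hist1h2ae 67.2%, 64.0%, 35.5% and 86.3%. For Hist1h1c it was 4.66%, 2.15%, 2.14% and 27.2%. Cells of the highest class were also deeper, with medians of 11382, 14502.5, 16311.5 and 12167.5 UMIs. Whether some were doublets was not tested, since no doublet caller was run.

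Markers of precursors were counted beside this class. The B cell precursor list held Igll1, Vpreb1, Vpreb3, Rag1, Rag2 and Dntt. In 18 M B cells each of these had UMIs at 5 or more UMIs of Mki67 and Top2a and also at 0. The list summed to 860 CPM at 5 or more, against 338 CPM at 0. Most of it was Vpreb3, with 599 CPM at 5 or more and 274 CPM at 0, which had UMIs in 981 of 2349 18 M B cells with 0 and so is not limited to the highest class. Igll1, a part of the surrogate light chain, had 79.5 CPM at 5 or more (UMIs in 5 of 40 cells) and 8.07 CPM at 0. Rag1 had 49.7 CPM at 5 or more and 39.2 CPM at 0, and Dntt had UMIs in 1 cell at 5 or more. In the fit of B cells with against without a UMI of Mki67 or Top2a, 0 of 6 genes of the list were called by edgeR or DESeq2, with 3 higher at an unadjusted p under 0.05 by edgeR and 1 by DESeq2. In the other libraries the list summed to 71.3, 122 and 107 CPM (NB, 2 M, 10 M) in B cells with 0. With 5 or more it was 40.7 CPM in NB (4 cells) and 0 CPM in 2 M (1 cell). In 18 M T cells the T cell precursor list stood at 160 CPM with 5 or more and 112 CPM with 0. Most of it was Cd8b1, which mature CD8 T cells also express. Each gene of that list had UMIs at 0, and all but Ptcra had UMIs at 5 or more. The part of precursors in the histone level was not tested.

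Other genes of histone supply were tested in the same fit of T cells. Of 10 histone chaperones, edgeR called 6 higher and 0 lower with a UMI of Mki67 or Top2a, where 2.87% of all genes were higher and 2.64% lower. Chaf1a, a subunit of chromatin assembly factor 1, rose by 2.80 ± 0.34 on the log2 scale, Asf1b, which carries H3 and H4, by 1.56 ± 0.21, and Anp32b, an H3 and H4 chaperone, by 0.76 ± 0.12. Chaf1b, the partner of Chaf1a, rose by 1.20 ± 0.28. Of 10 genes of histone mRNA processing and transcription tested, 1 was higher and 0 lower, namely Cdk2 (0.71 ± 0.20), which phosphorylates the histone gene coactivator Npat. Slbp itself had 0.33 ± 0.13 (edgeR, adjusted p = 0.23). Of 10 variant genes outside the clusters tested, which include H2afz and H3f3b and mostly give polyadenylated mRNA, 0 were called by edgeR or DESeq2, with 3 higher at an unadjusted p under 0.05 by edgeR and 5 by DESeq2. Of the S phase list 11 of 20 and of the G2/M list 16 of 19 were higher in T cells, and none was lower. DESeq2 called fewer higher in T cells: 3 chaperones, 0 genes of histone mRNA processing and transcription, 9 S phase genes and 14 G2/M genes. In B cells edgeR called 1 of 10 chaperones, 3 of 20 S phase genes and 9 of 20 G2/M genes higher, where 1.3% of all genes were. With DESeq2 the B cell counts were 0, 0 and 2.

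The share of cells with any member UMI was compared after thinning each cell to 1000 UMIs. In T cells it was 40.3% (interval 32.1% to 48.9%) with a UMI of Mki67 or Top2a and 29.1% (26.2% to 32.0%) without in NB. In 2 M it was 45.2% (33.5% to 57.3%) with and 32.5% (29.1% to 36.1%) without, in 10 M 36.4% with and 33.6% without, and in 18 M 52.4% (44.0% to 60.8%) with and 20.1% (17.3% to 23.1%) without. The intervals of the classes overlap in 2 M and 10 M. In B cells it was 32.5% with and 38.0% without in NB, 42.9% and 44.8% in 2 M, 41.8% and 44.5% in 10 M, and 40.1% and 26.3% in 18 M. The mean difference over the 4 libraries was 14.7 percentage points in T cells (SD 12.5) and 0.902 in B cells (SD 8.73). Unthinned, the shares averaged 87.7% with and 78.5% without in T cells and 80.4% with and 74.3% without in B cells. Of the cells compared, those under 1000 UMIs that were left out numbered 0 to 18 per class in B and T cells.

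These shares cover mostly members that are detected in cells of every kind, so 2 members are given alone. A UMI of Hist1h2ap was left after thinning in 4.32%, 8.22% and 2.73% of NB, 2 M and 10 M T cells with a UMI of Mki67 or Top2a and in 29 of 145 such cells of 18 M, against 1.24%, 1.39%, 1.47% and 1.84% without. For Hist1h3c it was 0.719%, 1.37%, 0.909% and 8.97% of T cells with, against 0.103%, 0%, 0.122% and 0% without. For 2 M (0 of 717 cells) the exact upper limit is 0.513%. Neutrophils without such a UMI, thinned alike, had Hist1h2ap in 0.180% to 0.459% of cells. Hist1h3c had 0 UMIs in neutrophils without a UMI of Mki67 or Top2a in all 4 libraries, before thinning.

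Cells with a UMI of Mki67 or Top2a were further split by whether genes of the S phase list or of the G2/M list had more UMIs. G2/M-leading cells were too few for a fit in most libraries (1 to 17 cells), so values are given with counting intervals and no test. In the library labelled 18 M, T cells had 2283 CPM of members when S-leading (117 cells) and 1597 CPM when G2/M-leading (17 cells), a ratio of 1.43 (1.26 to 1.63). B cells of that library had 1115 CPM when S-leading (142 cells) and 3178 CPM when G2/M-leading (17 cells), a ratio of 0.351 (0.313 to 0.394). The order thus differed between the types in that library. Of the 197 18 M B cells with a UMI of Mki67 or Top2a, 116 had exactly 1, and these had 277 CPM. Of the 145 such T cells, 68 had exactly 1, and these had 234 CPM. How these cells fell between S-leading and G2/M-leading is not given, and their part in the ratios was not tested. In NB T cells the values were 919 CPM S-leading (114 cells) and 1403 CPM G2/M-leading (11 cells), a ratio of 0.655. Hist1h1b had 320 CPM in S-leading and 122 CPM in G2/M-leading 18 M T cells, and 138 and 365 CPM in the same classes of 18 M B cells.

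In cells without a UMI of Mki67 or Top2a, the members' level differed between cell types. B cells had 492, 688, 678 and 294 CPM in sum (NB, 2 M, 10 M, 18 M) and T cells 371, 407, 480 and 235 CPM. NK cells had 745, 1114, 1175 and 425 CPM, neutrophils 605, 629, 651 and 287 CPM, alveolar macrophages 148, 118, 167 and 74.7 CPM and fibroblasts 156, 139, 162 and 143 CPM. NK cells were above B cells, and B cells above T cells, in each of the 4 libraries. Platelets had 6660 CPM in NB (44 cells) and 4664 CPM in 10 M (27 cells), and the other libraries had under 20 platelets each.

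The makeup differed too. Linker histone genes led in B cells, with 345 CPM of H1 of 688 CPM in 2 M, and in NK cells, with 711 CPM of 1114 CPM in 2 M. In neutrophils H2B genes led, with 366, 356, 359 and 149 CPM. Hist1h2bc alone had 312, 291, 296 and 125 CPM in neutrophils, against 60.3, 47.2, 50.1 and 13.4 CPM in B cells. In NB platelets, fragments of megakaryocytes with no nucleus, Hist1h2bc had 3558 CPM and Hist1h1c 1889 CPM, followed by Hist1h4i (662 CPM) and Hist1h4h (248 CPM). Hist1h1b and Hist1h3c had 0 UMIs in platelets of all 4 libraries. These platelets held only 8312 to 72520 UMIs a library, so low levels of either gene could be missed.

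**Figure D4:**
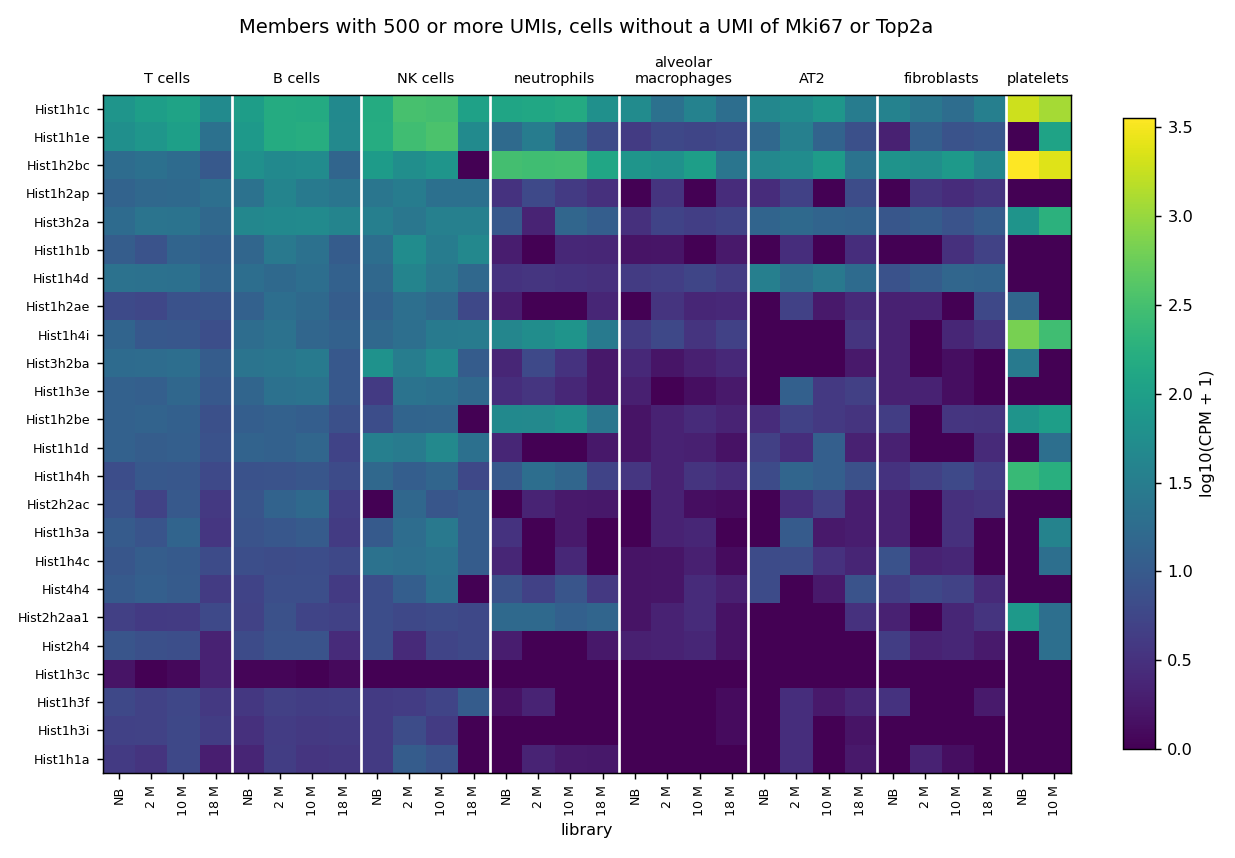
Colour gives log10(CPM + 1) of members with 500 or more UMIs in cells without a UMI of Mki67 or Top2a, with 1 column per library for cell types with at least 20 such cells in that library. Hist1h2bc stands out in neutrophils (125 to 312 CPM) and platelets (3558 CPM in NB). Hist1h1e has 83.4, 150, 162 and 45.8 CPM in B cells, against 5.68 to 29.7 CPM in neutrophils, and Hist1h3c is at most 3.81 CPM.

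T cells and neutrophils were each compared with B cells of the same libraries, all without a UMI of Mki67 or Top2a, in fits added after the values had been seen. Of 46 members, 7 were higher and 9 lower in T cells (edgeR, library as a block), where 26.6% of 12890 genes were higher and 26.4% lower, so the members' share lay under the background. Hist3h2a had 16.4, 22.3, 21.5 and 14.7 CPM in T cells, against 42.9, 48.0, 49.6 and 39.5 CPM in B cells, with no overlap (-1.08 ± 0.11, adjusted p = 2.5e-05). Hist1h2bc (-1.19 ± 0.17) and Hist1h1e (-0.65 ± 0.11) were also lower in T cells, and Hist1h2ak (2.15 ± 0.38), Hist4h4 (0.92 ± 0.23) and Hist1h4c (0.73 ± 0.20) higher. Hist1h4c did not pass without the 2 M library (0.61) or the 10 M library (0.69). Without the 18 M library 9 of 45 members were higher and 11 lower, where 3661 of 12354 genes were higher and 3583 lower. The members' share lay under the background there too.

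In neutrophils 8 of 42 members were higher and 14 lower than in B cells, where 25.6% of 12444 genes were higher and 37.4% lower. The median over all genes was -0.50 on the log2 scale and -0.33 with DESeq2, so values near these are no change of their own. Hist1h2bc (3.79 ± 0.16), Hist1h2be (3.27 ± 0.21), Hist2h2aa1 (2.72 ± 0.35) and Hist1h4i (2.67 ± 0.20) were higher in neutrophils, and Hist1h1c by 1.23 ± 0.15. Lower were Hist1h2ae (-3.04 ± 0.61), Hist1h1b (-2.76 ± 0.51), Hist1h2ap (-2.03 ± 0.35) and Hist1h1e (-1.69 ± 0.21), all with adjusted p of 9.5e-06 or less.

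Cells with 5 or more UMIs of Mki67 and Top2a also occurred in other types, mostly in 18 M, where they were 16 of 177 innate lymphoid cells, 6 of 51 NK cells, 28 of 433 alveolar macrophages and 6 of 160 erythroid cells, beside 60 of 906 T cells and 40 of 2546 B cells. In this class of 18 M, members had 7254 CPM in erythroid cells, 4947 CPM in NK cells and 2528 CPM in innate lymphoid cells. Alveolar macrophages of the class had 516 CPM, against 74.7 CPM in 309 alveolar macrophages of 18 M without a UMI of either gene. Plasma cells of the class had 6512 CPM in NB (3 cells). T cells of 18 M, at 3466 CPM, lay within the range of these types. These are single libraries and small classes, with no test.

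The library labelled 18 M was set against 2 M with no test. In all B cells together members had 418 CPM in 18 M and 684 CPM in 2 M, a ratio of 0.611 (0.588 to 0.634, counting error only). In B cells without a UMI of Mki67 or Top2a they had 294 CPM in 18 M and 688 CPM in 2 M, a ratio of 0.427 (0.408 to 0.447). In all T cells the direction was opposite, with 674 CPM in 18 M and 496 CPM in 2 M, a ratio of 1.36 (1.29 to 1.43). In T cells without a UMI of Mki67 or Top2a members had 235 CPM in 18 M and 407 CPM in 2 M, a ratio of 0.577 (0.534 to 0.624). The T cell ratio thus depended on the cells of the highest class: without T cells with 5 or more UMIs the values were 249 CPM in 18 M and 418 CPM in 2 M. As a mean over single T cells the levels were 465 CPM in 18 M and 466 CPM in 2 M, and over T cells of at most 10000 UMIs they were 374 CPM in 18 M and 431 CPM in 2 M.

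Among B cells without a UMI of Mki67 or Top2a, 29 members had at least 30 UMIs over both libraries. Of these 14 were at least 2-fold lower and 0 at least 2-fold higher in 18 M, where 4.27% of 10433 genes were 2-fold lower and 8.47% 2-fold higher. All but 1 of the 29, Hist2h2be, lay below 1. The median log2 ratio was -0.87 over the members and 0.11 over all genes. Hist1h1c had 47.2 CPM in 18 M and 154 CPM in 2 M, a ratio of 0.306 (0.274 to 0.341), and Hist1h1e 45.8 CPM in 18 M and 150 CPM in 2 M, a ratio of 0.305. Hist1h2bc had 13.4 CPM in 18 M and 47.2 CPM in 2 M. Hist3h2a differed less, with 39.5 CPM in 18 M and 48.0 CPM in 2 M, a ratio of 0.823 (0.714 to 0.947). Against the other adult library, 10 M, the order was the same: Hist1h1c had 149 CPM there, Hist1h1e 162 CPM and Hist1h2bc 50.1 CPM.

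Among T cells without a UMI of Mki67 or Top2a, 5 of 22 members were at least 2-fold lower and 0 at least 2-fold higher in 18 M, where 2.09% of 9237 genes were 2-fold lower and 6.46% 2-fold higher. The 5 were Hist2h4, Hist1h1e, Hist4h4, Hist1h3a and Hist1h2bc. Hist1h1e had 19.8 CPM in 18 M and 71.4 CPM in 2 M, a ratio of 0.277 (0.215 to 0.353). Of the 22, 18 lay below 1. Among the 4 above 1, Hist1h2ap had 19.1 CPM in 18 M and 15.1 CPM in 2 M, and Hist1h1b 11.1 CPM in 18 M and 7.04 CPM in 2 M, and both intervals include 1.

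Over all T cells, 8 of 31 members were at least 2-fold higher and 2 at least 2-fold lower in 18 M, where 8.28% of 9635 genes were 2-fold higher and 1.68% 2-fold lower. Hist1h3c had 28.2 CPM in 18 M and 5.04 CPM in 2 M, a ratio of 5.59 (3.72 to 8.69), and Hist1h2ap 122 CPM in 18 M and 31.1 CPM in 2 M, a ratio of 3.93 (3.32 to 4.68). Hist1h1c had 60.9 CPM in 18 M and 100 CPM in 2 M, a ratio of 0.607. Over all B cells, 3 of 34 members were at least 2-fold higher and 9 at least 2-fold lower, where 9.87% of 10668 genes were 2-fold higher and 3.97% 2-fold lower. The 3, a share no higher than that over all genes, were Hist1h3c, Hist1h2ab and Hist1h2bb. Hist1h3c had 88 UMIs in 18 M and 1 in 2 M, a ratio of 84.9 with an interval of 14.9 to 3392.

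**Figure D5:**
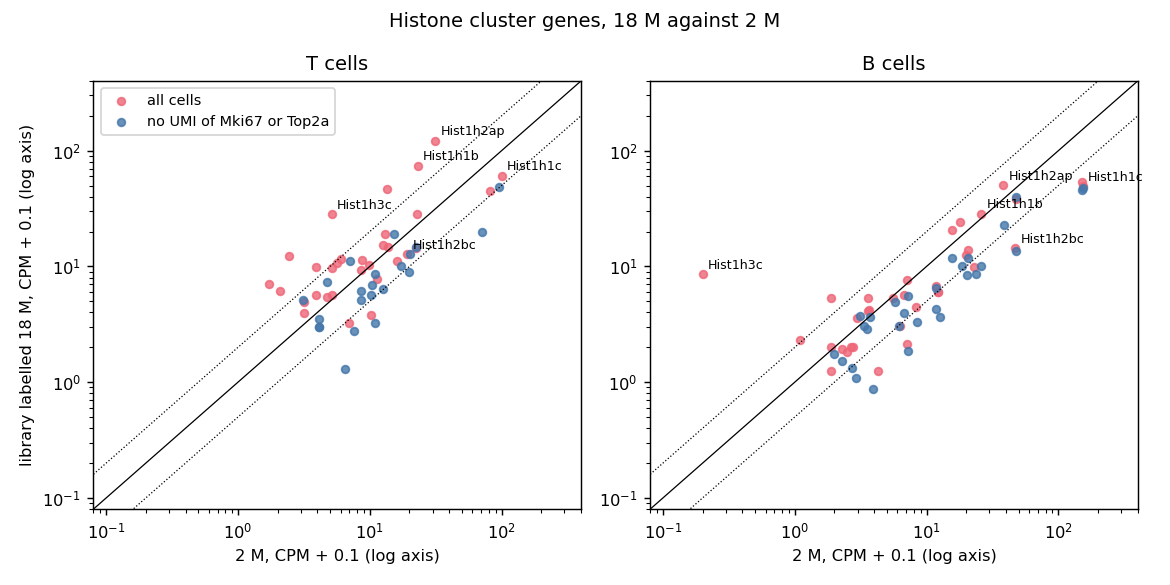
Points are members with at least 30 UMIs over both libraries, with the level in 2 M on the x axis and in the library labelled 18 M on the y axis (CPM plus 0.1, log axes), in T cells on the left and B cells on the right, and dotted lines mark 2-fold. Red points (all cells) of Hist1h3c and Hist1h2ap lie above the line of equality in T cells at ratios of 5.59 and 3.93, while most blue points (cells without a UMI of Mki67 or Top2a) lie below it.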

How the data were processed

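The authors deposited raw UMI counts for each gene and barcode. The submitters' processing notes list Cell Ranger 3.0.2, Seurat 2.0 and the mm10 build. The counts come from a 10x 3′ kit and cover 3′ ends of poly(A) mRNA.

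Cells were kept with more than 200 but fewer than 5000 genes, up to 25000 UMIs and less than 8% mitochondrial UMIs. No doublet caller was run. One marker list is not reported here. Members, lists, limits and comparisons were chosen with earlier results of these data known. Members with at least 100 UMIs are named. Members with fewer are named only in counts of 5 or fewer or beside a near-identical copy, after their values were seen. Other genes are named from the lists, at most 5 a list by lowest p among those called, with Slbp, H2afz and H3f3b named for their roles.

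UMIs were summed per cell type, library and class of cells. Intervals at 95% are exact Poisson (CPM), conditional binomial (ratios) and Clopper-Pearson (shares), and cover counting error only. Contrasts within libraries used edgeR 4.0.16 (R 4.3.3) on these sums, with the library as a block, genes of at least 20 UMIs, TMM scaling and an adjusted p under 0.05. Counts at an unadjusted p under 0.05 have no share over all genes beside them, so they are no result about the genes counted alone. The labels do not say whether a library held 1 mouse or several, and the p-values measure only the spread between these 4 libraries. That spread was wide for some abundant members, such as Hist1h2ap, with an SE of 0.52 in T cells and 1.00 in B cells. Alternatives were DESeq2 1.42.0, no filter, no block, leaving out each library, and other cell limits, gates, classes and thresholds. Scripts were tested on simulated data. They ran under Python 3.11.15 with scipy 1.17.1 for intervals, pandas 2.3.3 and numpy 2.4.6 for sums and matplotlib 3.10.9 for plots.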

Additional observations from a re-analysis of the deposited data

Results flagged for a closer look

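In B cells the members' summed level, with against without a UMI of Mki67 or Top2a, moved in opposite directions between libraries. The log2 ratios were -0.41 for NB, -0.19 for 2 M and -0.047 for 10 M, against 2.07 for 18 M, the library with Xist. Each age has 1 library, so this difference was not tested.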

How the results depend on the processing

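For B cells, the log2 ratio of the members' sum in 18 M over 2 M (-0.71) was -0.66 with no upper limit on genes and UMIs, -0.81 with at most 10000 UMIs per cell, -0.80 as a mean over cells, -1.23 without cells with a UMI of Mki67 or Top2a and -1.16 without cells with 5 or more. For T cells it (0.44) was 0.23 with the gate of 2 markers and turned to -0.20 with at most 10000 UMIs, -0.0046 as a mean over cells, -0.79 without cells with a UMI of Mki67 or Top2a and -0.75 without cells with 5 or more, a class chosen after seeing the data. Leaving out either class of T cells left 5 members past 2-fold, against 10. A minimum of 10 UMIs or a 1.5-fold limit gave 18 in T cells, and a minimum of 100 UMIs gave 4 in T cells and 6 in B cells, where 3-fold gave 5. Shares over all genes are not given for these limits, so the counts are no result about the members alone. The thinned share differed by 17.3 percentage points in B cells and 52.9 in T cells with a UMI of both genes. The log2 ratio of S-leading over G2/M-leading cells was -1.16 in B cells with no upper limit and 0.30 in T cells with the gate of 2 markers.

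Members called between B cells with and without a UMI of Mki67 or Top2a (2) numbered 0 with DESeq2, 24 with a UMI of both (0 without the 18 M library as well, added after seeing the data), 10 with at least 2 UMIs, 5 with the gate of 2 markers, and 1 to 4 with 1 library left out. In T cells (26) they numbered 17 with DESeq2, 10 with at most 10000 UMIs and 15 to 25 with 1 library left out. Between T and B cells (16) they numbered 10 with DESeq2 and 7 to 20 with 1 library left out. Without the library as a block, 0, 15 and 8 members were called in these contrasts. The number of all genes called moved too. In B cells 231 of 12277 genes were higher with at least 2 UMIs, 57 with DESeq2 and 1 without the block, against 159. In T cells 181 of 11325 were higher with DESeq2 and 75 without the block, against 325. With at most 10000 UMIs it was 109 of 11003, and with 1 library left out 190 to 332 genes. Between T and B cells, DESeq2 called 3034 of 12890 genes higher and 2756 lower, against 3426 and 3400. With 1 library left out, 2717 to 3661 genes were higher and 2563 to 3583 lower in T cells. No alternative turned the direction of a named member that had been called. The cause of these differences was not tested.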
